A study of Homo sapiens with 16 samples.

Results

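U937 is a human leukaemia cell line of the monocyte lineage, and the U937 cells studied here carried the fusion gene AML1-ETO behind a promoter that tetracycline controls. The comparison described is that of induced cells at 24 h with induced cells at 12 h, the first interval in which both ends were sampled after induction. It rests on 4 of the 16 arrays of the series, 2 replicates at each of the 2 times, chosen by their labels alone. All probe sets other than the AFFX controls entered it. Every group of the series carried the same construct, so that control and induced cells differ, per the labels, in induction only. The 8 groups of 2 arrays each are uninduced cells sampled at 0, 24, 48 and 72 h, and cells sampled 12, 24, 48 and 72 h after induction. Controls of 12 h were not analysed here, so the uninduced change set beside the induced one runs from 0 h to 24 h. The labels name neither the way of induction nor a clone, and nothing in them says that replicates came from separate cultures. P-values therefore measure the spread between these arrays, which may be technical.

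AML1-ETO arises from a chromosome translocation in acute myeloid leukaemia and fuses the DNA-binding runt domain of AML1, now named RUNX1, with nearly the whole of ETO, now named RUNX1T1. The fusion binds RUNX1 sites in DNA together with CBFB and, through its ETO part, recruits corepressors and histone deacetylases. It is known for blocking granulocytic differentiation, and MYC, a transcription factor that drives growth, ribosome production and the cell cycle, is among the genes studied in such cells.

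The deposited intensity values of each array had a mean of 1371 over all probe sets. The array medians were 220.3 and 277 at 12 h and 285 and 326 at 24 h. Of the 7824 probe sets tested, those at the floor of 135.6 made up 13.5% and 9.46% at 12 h and 7.77% and 7.48% at 24 h, the floor being the value to which lower readings were raised before log2 was taken. The log2 values of the replicates correlated at r = 0.939 at 12 h and 0.955 at 24 h. That correlation runs over probe sets, and these are no independent replicates. Of 16 measured markers of U937 and monocytic cells, 12 lay above the floor on all 4 arrays, AZU1 being the brightest, while CSF1R and CD68 lay at the floor on all 4. Of 18 measured lymphoid markers, 5 lay above the floor on all 4 arrays, namely CD3E, CD79A, CD22, LCK and IL7R. At the floor on all 4 lay 7 lymphoid markers, CD3D, CD3G, CD247, CD79B, MS4A1, GZMB and PAX5. All 18 lymphoid markers summed to 7346 to 7814 at 12 h and 7872 to 8168 at 24 h. The U937 and monocyte markers summed to 49284 to 51995 and 47452 to 57974. In each of these marker sums a reading under the floor counted as 135.6. The erythroid and megakaryocyte markers summed to 7253 to 7765 and 7852 to 7979, with 4 of 13 above the floor on all 4 arrays. The epithelial and fibroblast markers summed to 7193 to 8727 and 6183 to 7149, with 4 of 15. The brightest of these lists were EPOR, with a mean of 3442 over the 4 arrays, and KRT8, with 3672. In RNA from whole cultures, fewer cells of a type and less RNA per cell cannot be told apart.

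Between 12 and 24 h the induced cells lost most of their MYC signal. MYC fell 2.70-fold, and SATB1, TNIP1 and LYZL6 fell with it. CHRNB1 and ZNF646 rose. These 6 probe sets, 2 higher and 4 lower, were 0.0767% of the 7824 tested (limma, Benjamini-Hochberg adjusted p under 0.05). At an unadjusted p under 0.05, 524 probe sets (6.70%) were higher and 156 (1.99%) lower at 24 h. Over the whole table the median difference was log2 0.14 and 65.4% of differences lay above 0, so that the values of single genes and groups are to be read against that shift.

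MYC read 8714 and 9538 on the 12 h arrays and 3479 and 3283 on the 24 h arrays with probe set 1973_s_at (log2 -1.43, SE 0.17, adjusted p = 0.00681). The times did not overlap, and the spread within each time was small beside the gap. The array holds 3 further MYC probe sets, which were not called, and all 3 were lower at 24 h on both arrays. One of them read 6035 and 8370.4 at 12 h and 2966 and 2975 at 24 h (log2 -1.26, adjusted p = 0.354), and the other two differed by log2 -1.02 and -1.08. The 12 h level of 1973_s_at stood above the control level of 0 h, which was 4539 and 5697. Control cells of 24 h read 6549.8 and 7399, between the induced levels of 12 h and 24 h. The change in induced cells differed from the control change of log2 0.45 by log2 -1.88 (SE 0.23, adjusted p = 0.00506). On other arrays MYC was lower in induced than in control cells by log2 -2.95 at 48 h and -2.94 at 72 h. The call ended without induced 24 h replicate 2 (adjusted p = 0.0967), with the authors' scale factor divided out (0.575), and when only the 8 induced arrays (0.0866) or the 4 arrays compared (0.361) were fitted.

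SATB1 encodes a chromatin organiser known best from thymocytes. It read 7092 and 7083 at 12 h and 3619 and 4217 at 24 h (log2 -0.86, SE 0.14, adjusted p = 0.0454). The 24 h arrays lay below the controls of 0 h, at 4643 and 4628, and of 24 h, at 5260.4 and 4841. Against the 24 h control the difference was log2 -0.37 and was not called (limma, adjusted p = 0.922). The fall started from a raised level, since the 12 h arrays stood above the 0 h controls by log2 0.61 (limma, adjusted p = 0.0352). Later SATB1 stood above control, by log2 0.76 at 48 h (adjusted p = 0.0022) and 1.09 at 72 h (adjusted p = 6.47e-05).

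LYZL6 is a gene of the lysozyme-like family. Its tested probe set read 2624 and 3394 at 12 h and 816 and 379 at 24 h (log2 -2.42, SE 0.39, adjusted p = 0.0454), and it stood above control by log2 1.55 at 48 h and 2.00 at 72 h. Its controls read 2951 to 3877 at 0 and 24 h, 1426 and 1307 at 48 h and 1117 and 953 at 72 h, and the induced arrays of 48 h read 3236 and 4971. The other 2 LYZL6 probe sets did not have 2 arrays above the filter value of 292.7 and were not tested. TNIP1, whose product binds A20 and restrains NF-kB signalling, read 849 and 888 at 12 h and -66.0 and 118 at 24 h in the called probe set, a fall of at least log2 -2.68 (SE 0.43, adjusted p = 0.0454). "At least" marks a fold whose lower side lay at the floor. The control arrays of 0 h and 24 h read 260.3 or less, so only the induced cells of 12 h stood high over this span. The other TNIP1 probe set read between -282 and 216 on the 4 arrays (log2 -0.34, adjusted p = 0.958) and gave no such difference.

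CHRNB1 encodes the beta subunit of the muscle acetylcholine receptor. It read 632 and 738 at 12 h and 2733 and 4796 at 24 h, a rise of log2 2.41 (SE 0.34, adjusted p = 0.0307). Its controls read 3136 and 5476 at 0 h and 2451 and 4681 at 24 h, so the 12 h arrays were the low ones and the 24 h arrays lay in the range of the controls. ZNF646, a zinc finger gene, read -381 and 32.1 at 12 h and 689 and 629 at 24 h, a rise of at least log2 2.28 (SE 0.35, adjusted p = 0.0454). Its control arrays read 195 or less at 0 h and 24 h, and induced cells stood above control by log2 1.11 at 48 h and by at least 2.995 at 72 h, where both controls lay at the floor. Over 16 alternative settings MYC was called in 12, CHRNB1 in 7, and SATB1, LYZL6, TNIP1 and ZNF646 in 3 each. All 6 kept their direction in every setting in which they were tested. Each of the 4 arrays ended the calls of SATB1, TNIP1 and ZNF646 when it was left out, with adjusted p-values of 0.0951 to 0.375. The calls of LYZL6 and CHRNB1 held without induced 24 h replicate 1 and ended without any of the other 3 arrays, with adjusted p-values up to 0.369 and 0.248.

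**Figure D1:**
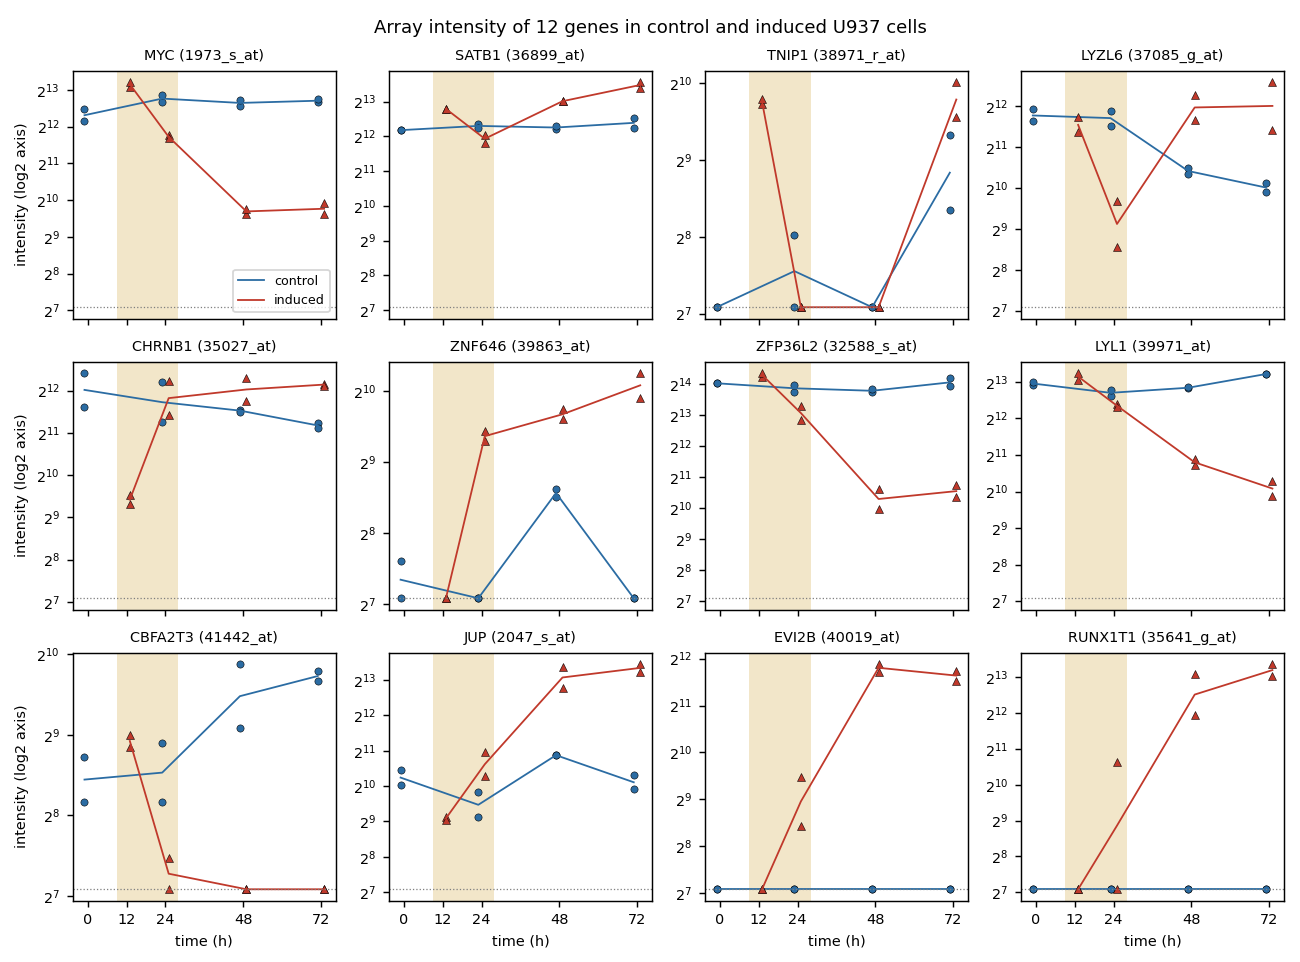
Array intensity (log2 axis) of 12 genes against time in hours, with control arrays as blue circles, induced arrays as red triangles and lines through the means of the log2 values. The shaded span is 12 h to 24 h and the dotted line is the floor of 135.6. MYC, ZFP36L2 and LYL1 read lower at 24 h than at 12 h and lie below control at 48 and 72 h, whereas SATB1 and LYZL6 are below control at 24 h and above it later.

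RUNX1 recognises the letters TGTGGT or TGCGGT, and promoters of called genes were searched because the fusion shares its DNA-binding domain. Promoter windows of 250 bases before to 50 after the start came from RefSeq (GRCh38.p14) and were searched on both strands, where the other strand reads ACCACA or ACCGCA. Of the 24 leading genes of both directions described here, 20 had an entry, with 32 starts. MYC, ZFP36L2, EVI2B and CETN3 had none and were not searched. A match stood in 8 of these 32 windows (25.0%), against 6879 of all 35116 windows of that length (19.6%). The windows of LILRA2 overlap and hold the same site, as do those of OCLN, so the 8 windows hold fewer than 8 separate sites. By gene, 2 of 10 leading rises and 4 of 10 leading falls held one. A gene with several starts has more chances of a match. The share by gene over all promoters was not computed, so these counts have no background. Windows of 3 of the called falls held a match, in 1 of the 4 starts of SATB1, 1 of the 2 of TNIP1 and the 1 of LYZL6. The other called fall, MYC, had no window. The called rises CHRNB1 and ZNF646 held no match. The windows of called genes with a match are shown with the match in capitals, each written 5′ to 3′ on the strand of the gene. They are SATB1 (chr3:18444069-18444368, minus strand, match 204 bases before the start), TNIP1 (chr5:151080985-151081284, minus strand, 144 bases before) and LYZL6 (chr17:35943664-35943963, minus strand, 41 bases after). A match is a description of these letters and shows no binding.
SATB1: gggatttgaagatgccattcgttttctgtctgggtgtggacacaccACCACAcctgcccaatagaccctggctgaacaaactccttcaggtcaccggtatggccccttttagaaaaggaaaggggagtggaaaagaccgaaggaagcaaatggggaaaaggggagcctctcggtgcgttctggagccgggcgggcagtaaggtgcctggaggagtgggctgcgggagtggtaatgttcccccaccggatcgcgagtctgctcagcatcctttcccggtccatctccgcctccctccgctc
TNIP1: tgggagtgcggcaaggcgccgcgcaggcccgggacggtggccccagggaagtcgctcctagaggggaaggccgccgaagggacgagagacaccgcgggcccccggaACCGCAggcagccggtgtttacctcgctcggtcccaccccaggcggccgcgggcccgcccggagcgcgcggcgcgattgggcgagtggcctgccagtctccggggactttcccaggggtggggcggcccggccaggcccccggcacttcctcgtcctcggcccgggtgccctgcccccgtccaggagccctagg
LYZL6: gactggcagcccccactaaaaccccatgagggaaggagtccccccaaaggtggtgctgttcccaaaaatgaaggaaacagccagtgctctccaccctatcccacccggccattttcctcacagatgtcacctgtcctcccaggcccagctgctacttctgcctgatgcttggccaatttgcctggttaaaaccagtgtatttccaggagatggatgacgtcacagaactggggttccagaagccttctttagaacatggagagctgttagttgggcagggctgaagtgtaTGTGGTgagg

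Below the called falls, ZFP36L2 and LYL1 had the smallest p-values among lower genes. ZFP36L2, an RNA-binding protein that destabilises AU-rich transcripts and is needed for blood stem cells, read 19428 and 21212 at 12 h and 7375 and 10092 at 24 h (log2 -1.23, SE 0.21, adjusted p = 0.0651). The times did not overlap. Its second probe set differed by log2 -0.82 (adjusted p = 0.440), and ZFP36L2 was lower than control by log2 -3.50 at 48 h and -3.52 at 72 h on other arrays. LYL1, a basic helix-loop-helix factor of blood progenitors, read 9692 and 8437 at 12 h and 5329.7 and 5079 at 24 h (log2 -0.80, adjusted p = 0.129). It too was lower than control later, by log2 -2.04 and -3.13. CBFA2T3 is a gene of the ETO family and a partner in corepressor complexes. It read 511 and 461 at 12 h and -61.4 and 177 at 24 h (log2 -1.65 with 1 of the 24 h arrays at the floor, adjusted p = 0.318). At 48 and 72 h all 4 induced arrays lay at the floor, and it was lower than control by at least log2 -2.40 and -2.65.

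The inflammatory cytokine gene TNF read 2135 and 1952 at 12 h and 734 and 813 at 24 h with probe set 1852_at (log2 -1.40, adjusted p = 0.249). Its second probe set differed by log2 -0.81 (adjusted p = 0.588). Control cells read 859 and 908 at 0 h and 1363 and 1806 at 24 h (log2 0.83, adjusted p = 0.276). SNRPA, the U1 snRNP protein A, read 19088 and 19733 and then 14026 and 12603 (log2 -0.55, adjusted p = 0.318). The remaining leading lower values, each with an adjusted p of 0.241 or 0.318, belonged to SEC16A (at least log2 -2.66), PNPLA2 (log2 -2.67 with 1 of the 24 h arrays at the floor) and the tight junction gene OCLN (at least log2 -2.43). For OCLN the induced arrays of 12 h stood at 828 and 649.8, while 24 h, 0 h control and 24 h control held 4 arrays at the floor, 1 at 204 and 1 at 1271.

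Among the leading higher values that did not pass the test, several belonged to genes that were much higher in induced than in control cells later. JUP, the desmosome and Wnt pathway protein plakoglobin, read 559 and 529.9 at 12 h and 1239.7 and 1994 at 24 h (log2 1.53, SE 0.30, adjusted p = 0.129). Its controls read 1039 and 1410 at 0 h, above the induced arrays of 12 h and overlapping those of 24 h. At 24 h the controls read 557 and 906. The later differences of JUP from control were log2 2.20 and 3.23. EVI2B, a leukocyte membrane protein, read 52.8 and 94.3 and then 710.3 and 347 (at least log2 1.87, adjusted p = 0.169). All control arrays of 0, 24 and 48 h lay at the floor, and the difference from control was at least log2 4.72 at 48 h. CPN1, a carboxypeptidase subunit, read 90.6 and 170.2 and then 549 and 553 (log2 1.86 with 1 of the 12 h arrays at the floor, adjusted p = 0.113). Its controls of 48 and 72 h lay at the floor, which makes the later differences at least log2 2.81 and 3.43. WBP2, a WW domain-binding coactivator, read 3000.5 and 3379.6 and then 5965 and 5011 (log2 0.78, adjusted p = 0.113). Its controls read 5049 and 4954 at 0 h and 3858 and 4287.5 at 24 h, all above the induced arrays of 12 h. WBP2 was above control by log2 1.51 and 1.38 later.

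In several leading genes the induced arrays of 12 h lay below the controls of 0 h and 24 h. PCLAF, a PCNA-binding protein of dividing cells, read 7180.3 and 6129 at 12 h and 11117 and 10858 at 24 h (log2 0.73, SE 0.13, adjusted p = 0.0651). Its controls read 12219 and 12332 at 0 h and 9367 and 9194 at 24 h, so the 12 h arrays were the lowest of these 8, and at 72 h PCLAF was below control by log2 -0.87. IDH1, the cytosolic isocitrate dehydrogenase, read 4042 and 3644 and then 6603 and 6812 (log2 0.81, adjusted p = 0.109). Its controls of 0 h and 24 h read between 4508 and 6587. The actin-nucleating subunit gene ARPC5 differed by log2 0.97, the centrin gene CETN3 by 0.86, the leukocyte receptor gene LILRA2 by 1.20 and the coat protein gene SEC23A by 1.21, with adjusted p-values of 0.129 to 0.215. For LILRA2 the 12 h arrays, at 1172 and 731, overlapped the 24 h controls, at 1371 and 1022. The second probe sets of CETN3 and LILRA2 were also higher, by at least log2 0.62 and 1.11.

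The ETO part of the fusion can be seen only through RUNX1T1 probe sets. Its tested probe set read -116 and 86.1 at 12 h and 1592 and -47.5 at 24 h. One array of 24 h was thus high and the other under the floor, and the times overlapped. With values under the floor raised to it, the difference was log2 1.78 (SE 0.80, adjusted p = 0.570), which is no bound. Its other 3 probe sets did not have 2 arrays above the filter value of 292.7 and were not tested. CBFB, the partner of the runt domain, read 9348 and 9593 and then 11738 and 12298 (log2 0.34, adjusted p = 0.486). The deacetylase genes HDAC1, HDAC2 and HDAC3 differed by log2 0.18, 0.15 and -0.36. Of 11 tested genes for parts of AML1-ETO and the core binding factor, 0 were called (limma), 2 were higher and 1 lower at an unadjusted p under 0.05, and the median was log2 0.15.

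The overall shift depended on signal level. Split into 5 equal bins by mean level over these 4 arrays, the probe sets had median log2 differences of 0.17, 0.31, 0.20, 0.13 and 0.00 from the dimmest to the brightest bin. After quantile normalization all 5 medians lay between 0.00 and 0.05. Scaling also moved the balance of single differences. The split of 524 higher and 156 lower at an unadjusted p under 0.05 became 334 and 224 after quantile normalization and 209 and 373 after median centring. With the authors' scale factor divided out it was 609 and 44. Under these 3 scalings the median of the whole table stood at log2 0.01, -0.059 and 0.40. The share of probe sets at the floor was lower on both 24 h arrays than on both 12 h arrays, and its part in the shift was not tested.

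The 32 gene lists were described by 1 probe set per gene, that of highest mean, over 5606 tested genes with a median of log2 0.14. Of these genes 2 were called higher and 3 lower. At an unadjusted p under 0.05, 409 genes stood higher and 114 lower. By these probe sets no list held a call (limma). MYC, a list member, was represented by 1827_s_at and not by its called probe set. The counts given for lists are therefore those at an unadjusted p under 0.05. Their background is the 409 higher and 114 lower of 5606 genes. Over all 7824 tested probe sets the shares were 6.70% and 1.99%. After median centring the medians of the DNA replication, amino acid response, interferon and core binding factor lists, which lay near that of all genes, turned to log2 -0.04 to -0.06. Both 24 h arrays lay above both 12 h arrays for 1738 of the 5606 genes and below them for 633.

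**Figure D2:**
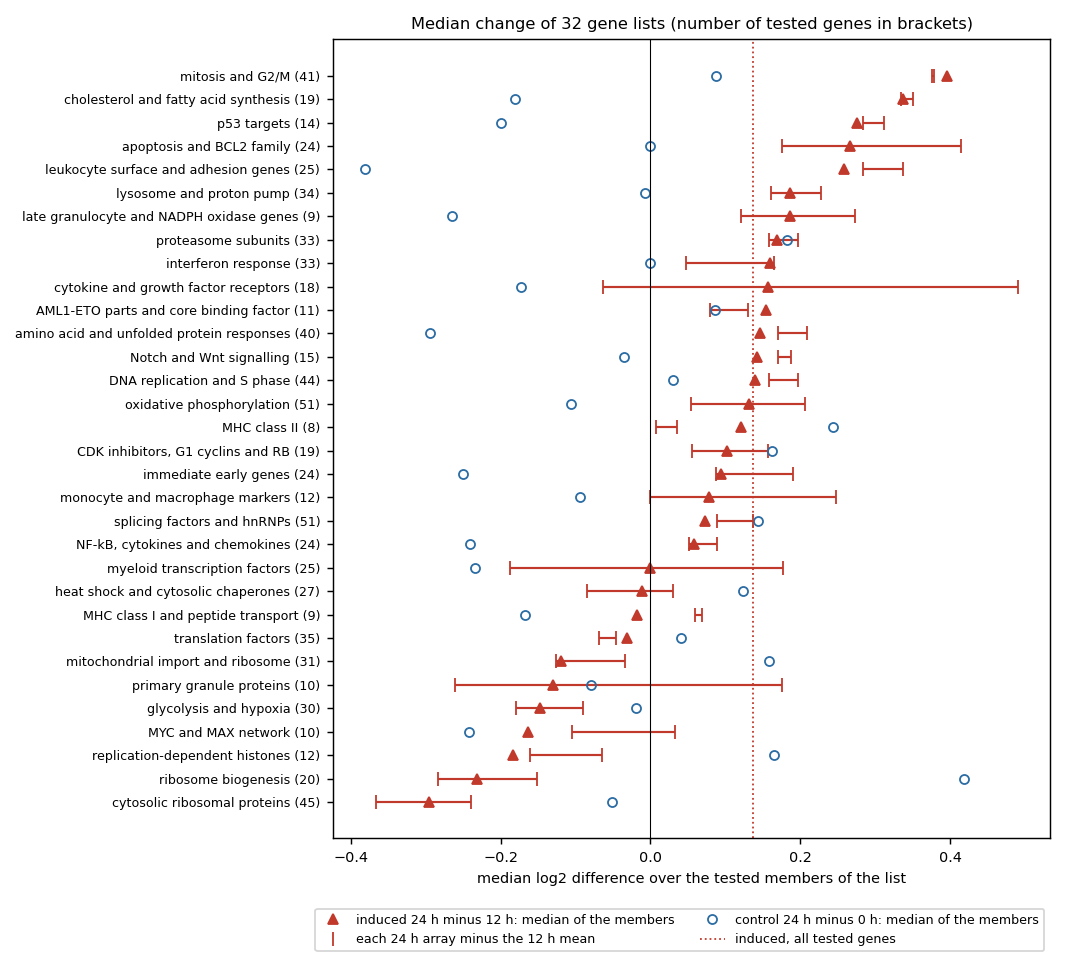
Median log2 difference over the tested members of 32 gene lists, with the number of members in brackets. Red triangles show induced cells at 24 h minus 12 h, red bars the medians for each of the 24 h arrays against the 12 h mean, open blue circles control cells at 24 h minus 0 h, and the dotted line the median of all tested genes in induced cells, log2 0.14. Mitosis and G2/M genes lie highest at log2 0.40 and cytosolic ribosomal protein genes lowest at -0.30.

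Genes of mitosis and G2/M had the highest median, log2 0.40 over 41 tested members, of which 33 lay above 0. At an unadjusted p under 0.05, 12 were higher and 1 lower. ZWINT, a kinetochore protein, read 8429 and 10026 at 12 h and 12987 and 14361 at 24 h (log2 0.57, adjusted p = 0.331). The spindle motor gene KIF11 read 2236 and 2500.3 and then 3687 and 4716 (log2 0.82, adjusted p = 0.369), HMMR differed by log2 0.95 and KIF14 by 0.62. In none of these 4 did the times overlap. The beta tubulin gene TUBB was lower at 24 h, at 20206 and 15835 and then 10962 and 10158 (log2 -0.76, adjusted p = 0.560). The median was log2 0.38 with either 24 h array and 0.34, 0.20 and 0.67 under quantile normalization, median centring and division by the scale factor. It was log2 0.09 in control cells from 0 to 24 h, and against control it was 0.22 at 48 h and -0.67 at 72 h.

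Genes of DNA replication and S phase, 44 tested, did not share that shift. Their median was log2 0.14, that of all genes, with 2 higher and 1 lower at an unadjusted p under 0.05. The helicase subunit gene MCM2 read 16703 and 19429 and then 16518 and 11459.5 (log2 -0.39, adjusted p = 0.523), while the clamp loader gene RFC4 differed by log2 0.61. The bright members MCM6 and TYMS differed by log2 -0.16 and -0.06. By 72 h the median of this list against control was log2 -1.57. Of 12 tested histone genes, 0 were higher and 1 lower at an unadjusted p under 0.05 (H1-3, log2 -1.11, adjusted p = 0.568). Their median was log2 -0.18, and -0.37 after quantile normalization, with 2 of 12 above 0. With the scale factor divided out, which raised the median of all genes too, it was 0.01. Relative to control the median was 1.17 and 2.86 at 48 and 72 h, so this group was not yet higher at 24 h. Among 19 CDK inhibitors, G1 cyclins and RB family genes none passed an unadjusted p of 0.05 either way, with CDKN2D at log2 0.90 and RB1 at 0.54.

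Of 20 genes of ribosome biogenesis, a group that MYC is known to drive, 4 lay above 0, and for 12 both 24 h arrays lay below both 12 h arrays. The median was log2 -0.23, and 0 were higher and 1 lower at an unadjusted p under 0.05. NOP2, a nucleolar RNA methyltransferase, read 2764 and 4254 at 12 h and 1939 and 2189.6 at 24 h (log2 -0.73, adjusted p = 0.570). PES1 differed by log2 -0.46, the nucleolar protein gene NPM1 by -0.33 and NCL by -0.20. Control cells had a median of log2 0.42 in this list from 0 to 24 h. Induced cells of 12 h stood at 0.64 against the 0 h control. Against control of the same time the median was -0.18 at 24 h and -1.22 at 48 h. The median of 24 h minus 12 h in induced cells was -0.27 after quantile normalization. With the scale factor divided out it was 0.04, where all genes had 0.40. Of 10 genes of the MYC and MAX network, 0 were higher and 1 lower at an unadjusted p under 0.05, which was MYC itself through probe set 1827_s_at. MNT, a MYC antagonist, differed by log2 -0.67 and MXI1, another, by 0.10.

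Cytosolic ribosomal protein genes had the lowest median, log2 -0.30 over 45 tested members. Only 3 lay above 0, and for 31 both 24 h arrays lay below both 12 h arrays. At an unadjusted p under 0.05, 0 were higher and 4 lower. RPS3 read 29512 and 25819 and then 20821 and 19793 (log2 -0.44, adjusted p = 0.566), RPS4X differed by log2 -0.51, RPL41 by -0.46 and RPL8 by -0.49. These are among the brightest probe sets. After quantile normalization the median was log2 -0.10, with 15 of 45 above 0, and with the scale factor divided out it was -0.02. In control cells it was -0.05, and against control -0.14 at 48 h.

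**Figure D3:**
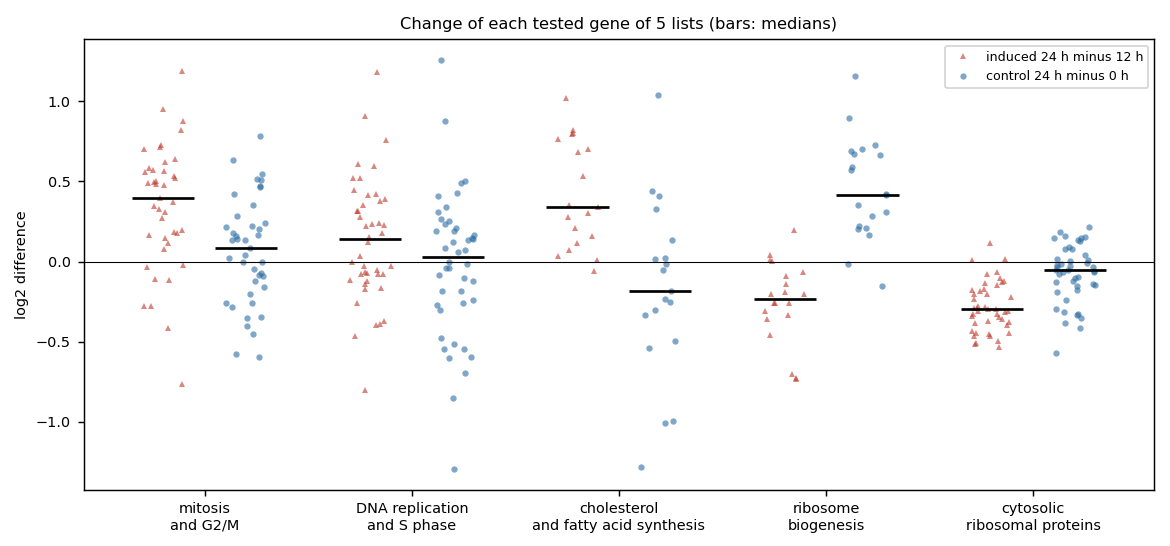
Log2 difference of each tested gene of 5 lists, with induced cells at 24 h minus 12 h as red triangles, control cells at 24 h minus 0 h as blue circles and medians as black bars. Ribosome biogenesis genes lie mostly below 0 in induced cells (median -0.23) and mostly above 0 in control cells (0.42), and cholesterol and fatty acid synthesis genes the other way round (0.34 and -0.18).

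Genes of cholesterol and fatty acid synthesis were higher in 18 of 19 cases, with a median of log2 0.34. At an unadjusted p under 0.05, 4 were higher and 0 lower. SREBF1, the transcription factor of lipid synthesis, read 3307 and 2671 at 12 h and 5534 and 4219 at 24 h (log2 0.70, adjusted p = 0.449). ACAT2 differed by log2 0.82, the sterol reductase gene DHCR7 by 0.34 and EBP by 0.54. The controls of SREBF1 read 5587 and 5736 at 0 h and 4582 and 5079 at 24 h, above the induced arrays of 12 h. The list's median in control cells was log2 -0.18, and induced cells of 12 h stood at -0.43 against the 0 h control. Under quantile normalization, median centring and division by the scale factor the median was 0.27, 0.14 and 0.61. FASN, the brightest of the named members, differed by log2 -0.06.

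Energy metabolism was mixed. Of 30 tested glycolysis and hypoxia genes, 5 were higher and 4 lower at an unadjusted p under 0.05, with a median of log2 -0.15 that turned to 0.12 with the scale factor divided out. The glucose transporter genes SLC2A1 and SLC2A3 differed by log2 0.72 and 1.07 and the hypoxia factor HIF1A by 1.34, from 443 and 552 to 1214 and 1292 (adjusted p = 0.458). Glycolytic enzymes of high level lay lower, PGAM1 by log2 -0.39 and ENO1 by -0.35, and the regulatory kinase gene PFKFB4 by at least -1.83. For oxidative phosphorylation, with 51 tested genes, 5 stood higher and 0 lower, led by the complex I subunit genes NDUFB5 (1.00) and NDUFV2 (0.54). The median was log2 0.13, and -0.07 after median centring. After quantile normalization it was 0.19, with 8 higher and 0 lower. There 45 of the 51 lay above 0, against 52.7% of all tested probe sets. Without quantile normalization, the median was 0.43 without induced 12 h replicate 1 and -0.11 without replicate 2, so the 12 h arrays differed from each other in this group.

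Genes of leukocyte surface and adhesion had a median of log2 0.26 over 25 tested members, with 8 higher and 2 lower at an unadjusted p under 0.05. Besides EVI2B, the integrin gene ITGB1 read 2080.4 and 2387 at 12 h and 3822 and 3749 at 24 h (log2 0.76, adjusted p = 0.318). PTPRC, the phosphatase CD45, read 4029.9 and 3641 and then 5850.2 and 6176 (log2 0.65, adjusted p = 0.325). In both the times did not overlap, and both were above control later, at log2 1.55 and 0.72 at 48 h. The controls of ITGB1 read 4457 and 4011 at 0 h and 2628 and 3604 at 24 h, above its induced arrays of 12 h. Those of PTPRC read 6360 and 5495 at 0 h and 3770 and 5226 at 24 h. SELPLG, the P-selectin ligand, read 1492 and 705 and then 218 and 519 (log2 -1.61, adjusted p = 0.370), and stood lower than control by at least log2 -3.63 at 48 h, where both induced arrays lay at the floor. Medians under quantile normalization, median centring and division by the scale factor were 0.20, 0.06 and 0.53.

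Myeloid transcription factors lay on both sides of a median of log2 0.00 over 25 tested genes, with 2 higher and 3 lower at an unadjusted p under 0.05. CEBPA, the granulocytic factor that AML1-ETO is known to lower, read 11053 and 11812 at 12 h and 6477 and 8821 at 24 h (log2 -0.60, SE 0.22, adjusted p = 0.486). The times did not overlap, and at 48 h CEBPA stood at log2 -2.51 against control. GFI1, a repressor of the granulocyte lineage, differed by log2 -0.41 (adjusted p = 0.498). LMO2, a partner of LYL1, read 1769 and 1524 and then 2635 and 2858 (log2 0.74, adjusted p = 0.449). ID1, an inhibitor of helix-loop-helix factors, was higher by log2 0.81, and its controls were higher at 24 h by 0.93. Of 10 primary granule genes none passed an unadjusted p of 0.05 either way. The azurocidin gene AZU1 differed by log2 -0.29 and RNASE2 by -0.21, while LYZ read 9772 and 4176 and then 10277 and 9505. Among 9 late granulocyte genes and 12 monocyte and macrophage markers likewise none passed, with FCAR at no less than log2 0.89 and FCER1G at 0.73.

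Stress and death genes had list medians of log2 0.15 to 0.28, beside 0.14 for all tested genes. Of 14 p53 target genes, 3 were higher and 0 lower at an unadjusted p under 0.05 with a median of log2 0.28. The cyclin gene CCNG2 read 110.3 and 107 and then 559 and 370.1 (at least log2 1.75, adjusted p = 0.386). Of 24 apoptosis genes, 3 were higher and 0 lower, the caspase genes CASP2 (0.84) and CASP4 (0.60) and the survival gene MCL1 (0.56), with a median of 0.27. The median was 0.13 for the p53 targets and 0.05 for the apoptosis genes after quantile normalization. BID, which promotes cell death, differed by log2 -0.72 (adjusted p = 0.578). The list for the amino acid response and the unfolded protein response held 40 tested genes, of which 4 were higher and 0 lower, with MTHFD2 at 0.57 and the cystine transporter gene SLC7A11 at 0.97. That list's median was 0.15 here and -0.66 against control at 48 h.

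Interferon response genes, 33 tested, had a median of log2 0.16 with 2 higher and 0 lower at an unadjusted p under 0.05, BST2 (0.59) and the DNA sensor gene IFI16 (1.01). Of 24 genes of NF-kB, cytokines and chemokines, none passed an unadjusted p of 0.05 either way, TNF being represented there by its second probe set. Among 18 cytokine receptor genes, 1 was higher and 2 lower, and the transferrin receptor gene TFRC, counted with them, read 6199 and 13106 and then 3354 and 4941 (log2 -1.15, adjusted p = 0.329). The remaining lists had medians between log2 -0.12 and 0.19 and at most 4 members in either direction at an unadjusted p under 0.05. They were proteasome, lysosome, chaperone, splicing, translation, mitochondrial import, immediate early, MHC class I, MHC class II, and Notch and Wnt genes.

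Probe sets that separated induced from control cells later had other values than the rest between 12 and 24 h, in part through the filter described below. At both 48 and 72 h, 1219 probe sets (15.6%) were called in one direction against the same-time controls, 646 higher and 573 lower. None of those arrays enters the comparison of 24 h with 12 h. The filter for testing, however, counted all 16 arrays, so a probe set could be tested through its induced arrays of 48 and 72 h alone. Where both 12 h arrays lay at the floor, as in EVI2B and CDKN1A, a difference below 0 was impossible. Part of the shares and counts for the later rises was thus fixed in advance, and its size was not tested. Of the 646 later rises, 84.8% lay above 0 between 12 and 24 h, against 66.0% of all other tested probe sets, and their median was log2 0.32 against 0.15. Of the 573 later falls, 63.4% lay below 0, against 33.3% of the others, with a median of -0.09. At an unadjusted p under 0.05, the later rises split into 136 higher and 3 lower and the later falls into 12 higher and 47 lower.

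Each 24 h array gave this order of the groups. Both were set against the same 12 h mean, so the 2 arrays are no independent support for it. Against the 12 h mean, the later rises had a median of log2 0.32 on replicate 1 and 0.30 on replicate 2, and the later falls -0.14 and -0.03. After quantile normalization, under which the later sets were called anew (632 rises and 664 falls), 73.4% of the later rises lay above 0 and 67.9% of the later falls below 0, against 52.7% and 46.7% of all tested probe sets. With the scale factor divided out, where 540 probe sets made up both later sets, the medians were 0.65 and 0.11 beside 0.40 for all, so the sign of the later falls turned while their place below all others did not. Control cells had a median of log2 -0.22 for the later rises and 0.12 for the later falls from 0 to 24 h. Of the 6 called probe sets, ZNF646 was a later rise and MYC a later fall, while SATB1 and LYZL6 fell here although they were later rises.

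**Figure D4:**
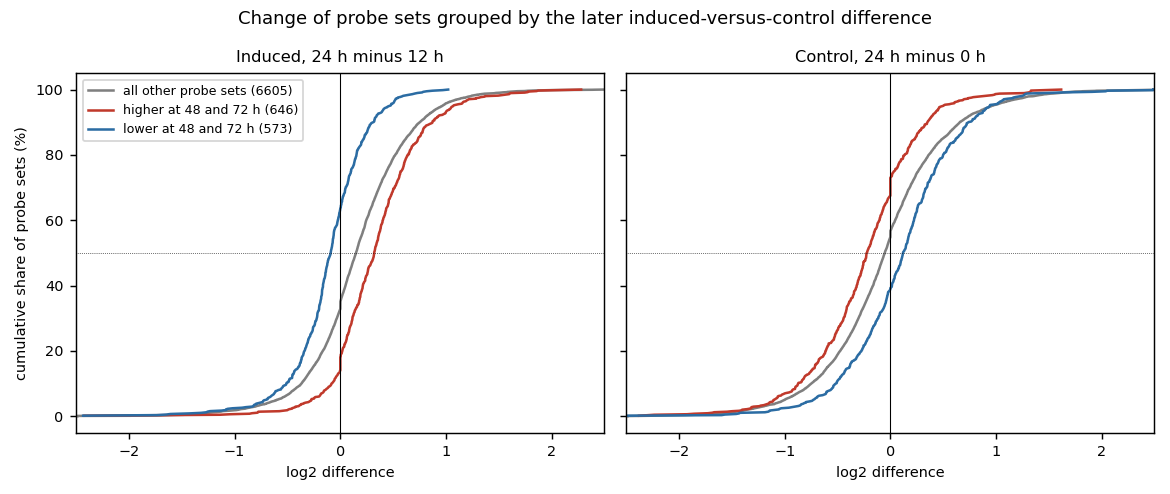
Cumulative share of probe sets (%) against the log2 difference, for induced cells at 24 h minus 12 h on the left and control cells at 24 h minus 0 h on the right, with the axis limited to the range drawn. Red, probe sets higher in induced cells at 48 and 72 h (646). Blue, those lower at both times (573). Grey, all other tested probe sets (6605). On the left the red curve lies to the right of the grey and the blue to its left, with medians of 0.32, 0.15 and -0.09, and on the right the order is the reverse.

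Single genes of the later response differed in their values between 12 and 24 h. ANXA1, the phospholipid-binding annexin A1, read 308 and 347 at 12 h and 1005 and 991 at 24 h (log2 1.61, adjusted p = 0.354). The times were far apart, and the test took its spread from all groups. CD53, a leukocyte tetraspanin, read 128 and 358 and then 625 and 392.5 (log2 1.17 with 1 of the 12 h arrays at the floor, adjusted p = 0.537), and PLA2G4C differed by log2 1.05. The cell cycle inhibitor gene CDKN1A lay under the floor on all 4 arrays, and H2BC21, CXCL8 and SEMA3A read 228 or less on all 4. IRF9 read 439 on one 24 h array and under the floor on the other 3.

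None of the 10 strongest later falls passed the test between 12 and 24 h (limma). The monocyte factor gene IRF8, which stood at log2 -4.85 against control at 48 h with 1 of the induced arrays at the floor, read 5471 and 6602 at 12 h and 3481 and 4758 at 24 h (log2 -0.56, adjusted p = 0.716). The times did not overlap. POLD1, the catalytic subunit of DNA polymerase delta, read 4236 and 4538 and then 3779.8 and 3039 (log2 -0.37, adjusted p = 0.594). MFAP4 differed by log2 -1.74 with 1 of the 24 h arrays at the floor (adjusted p = 0.560), and in controls it differed by -2.86 from 0 to 24 h (adjusted p = 0.115). TUBA4A, KCNAB2, RAC2, MS4A3, LST1, DDIT4 and SLC7A1 differed by log2 -0.24 to 0.16, with overlapping arrays of both times, and several of these signs turned with the scaling. DDIT4 already stood below the 0 h controls at 12 h, by log2 -2.26 (limma, adjusted p = 0.0115). For the others of these genes that adjusted p was 0.197 or more.

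Control cells between 0 and 24 h had 39 called probe sets (0.498%), 13 higher and 26 lower. The induced change and the control change differed for 48 probe sets (0.613%), 33 higher and 15 lower. After median centring this split was 15 and 27. Intervals of 12 h and 24 h are set against each other here, and which part of the difference lies in the first 12 h of the control interval cannot be told apart. SAT1, the polyamine acetyltransferase, read 5496 and 5422 in controls at 0 h and 2447 and 1851 at 24 h, and 2243 and 2165 at 12 h and 3385 and 3116 at 24 h in induced cells (log2 difference of changes 1.92, SE 0.25, adjusted p = 0.00597). On both 0 h control arrays the mitophagy receptor gene BNIP3L, ALDH3B1, the glucocorticoid-induced gene TSC22D3 and EXT1 also read above the other 6 arrays of these 4 groups. The difference of changes was log2 2.47 for BNIP3L and 3.65 for ALDH3B1. For TSC22D3 and EXT1 it was at least 4.35 and 4.01, since their induced arrays of 12 h and control arrays of 24 h lay at the floor. WSB1 differed by log2 2.45, and its 0 h controls, at 8603 and 5954, overlapped the induced arrays of 24 h, at 5969 and 5336. TSC22D3, for example, read 1526 and 1725 in controls at 0 h and 277 or less on the other 6 of these 8 arrays.

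In the other direction CCDC86, a nucleolar protein gene, read -139.8 and 21.8 in controls at 0 h and 1171 and 1054 at 24 h, while induced cells went from 2328 and 2705 to 1144 and 886 (log2 difference of changes at least -4.35, with both 0 h controls at the floor, SE 0.47, adjusted p = 0.00319). SRM, the spermidine synthase, read 11301 and 11550.5 in controls at 0 h and 19787 and 17177 at 24 h, and 20633 and 20498 at 12 h and 16619 and 15319 at 24 h in induced cells (log2 -1.06, adjusted p = 0.0169). VARS1, which charges tRNA with valine, and the proteasome receptor gene ADRM1 had the same course, at log2 -1.04 and -1.50. CTSA, a lysosomal protease, differed by -1.83 through its controls, since its induced arrays read between 1690.1 and 2079.8. By array, the number of called differences ran from 7 without induced 24 h replicate 2 or without control 24 h replicate 1 to 106 without control 24 h replicate 2.

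The 24 h replicates themselves disagreed for some genes whose 12 h arrays were close. PLXND1, a semaphorin receptor gene, read 2140.1 and 1695 at 12 h and 2557 and 161 at 24 h. TBCD, a tubulin cofactor gene, read -335 and -416 and then -393 and 1626, and INHBC read 649 and 728 and then -98.3 and 1308. PIP5K1A, OBSL1 and AP2B1 were likewise higher on replicate 2 than on replicate 1. Replicate 1, which carried the RUNX1T1 signal, was thus the lower one for 5 of these 6 genes, and none of them passed the test (adjusted p-values of 0.643 to 0.994).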

How the data were processed

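Total RNA, extracted with TRIzol per the labels, was hybridised to Affymetrix U95Av2 arrays, 1 per sample. The deposited values are linear intensity values per probe set, brought by the authors to a common mean with a scale factor per array. The summarising tool was not given in the sources used here. Below 0 were 25.8% of the values. Values under the 40th percentile (135.6, the floor) were set to it and log2 was taken. Of 12626 probe sets, 67 AFFX controls were left out, and 7824 with at least 2 of 16 arrays above the median of all values (292.7) were tested. limma 3.58.1 (R 4.3.3) fitted 1 mean per group over 16 arrays, with a mean-variance trend, 8 residual degrees of freedom and Benjamini-Hochberg adjustment over all tested probe sets, so the spread is shared by all groups. The number of arrays limits the precision, with a median SE of 0.38 on the log2 scale. Of the tested probe sets, 6878 had 1 gene symbol in the platform annotation, 385 several and 561 none. Tables were made with Python 3.11.15, pandas 2.3.3 and numpy 2.4.6, and the fit was tested on simulated data.

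Named were the called probe sets with 1 symbol, filled up to 12 in each direction by p-value among those whose times did not overlap, with 1 probe set per gene. RUNX1T1 was always named. Further genes came from list members of smallest p or highest level, the 10 largest later rises and falls at 72 h, the 6 smallest p in each direction for the difference from the control change, and the 6 largest replicate gaps at 24 h where the 12 h arrays differed by under 0.5 (log2). The genes and lists were chosen with earlier results of these data known. Alternatives were other floors and filters, quantile normalization, median centring, division by the scale factor, no trend, fewer arrays in the fit and a replicate block.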

Additional observations from a re-analysis of the deposited data

Results flagged for a closer look

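The change in induced cells from 12 to 24 h and the change in control cells from 0 to 24 h differed, by the contrast of the 2 changes in limma with Benjamini-Hochberg adjustment, for 48 probe sets. Named genes among them are given as the induced change minus the control change on the log2 scale. Of the genes that led the comparison of 24 h with 12 h, CHRNB1 stood at 2.70, ZNF646 at 2.54, JUP at 2.30, PCLAF at 1.13, WBP2 at 1.08 and IDH1 at 1.07. Lower in this sense were MYC at -1.88, SATB1 at -0.98, TNIP1 at -3.15 and OCLN at -4.34. TNIP1, ZNF646, OCLN, TSC22D3, EXT1 and CCDC86 had arrays at the floor, so these differences depend on where the floor was set. The genes with the smallest p were TSC22D3 at 4.35 or more, EXT1 at 4.01 or more, ALDH3B1 at 3.65, BNIP3L at 2.47, WSB1 at 2.45 and SAT1 at 1.92. On the lower side they were CCDC86 at -4.35 or lower, CTSA at -1.83, ADRM1 at -1.50, SRM at -1.06 and VARS1 at -1.04, besides MYC.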

How the results depend on the processing

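The 6 calls between induced cells of 24 h and 12 h became 2 with the floor at the 30th percentile, 1 with it at the 50th and 10 with no filter on low values. With the scale factor divided out there were 0 calls (limma), with 609 probe sets higher and 44 lower at an unadjusted p under 0.05. There were also 0 with 8 induced arrays in the fit and 0 with the 4 arrays alone. Without the control 0 h arrays, an alternative chosen after seeing the data, there were 2. Leaving out 1 array at a time gave 0 to 6, the 0 being without induced 24 h replicate 2. With a replicate block there were 2, CHRNB1 and MYC. Deviations of same-numbered arrays of 12 h and 24 h correlated at 0.0956, and 7 of 28 pairs of groups exceeded 0.1, so the numbers were not taken to pair the samples.

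The 39 calls in control cells became 25 with no filter, 72 with the stricter filter, 5 with the scale factor divided out, 15 without the trend and 10 to 85 with 1 array left out. The 48 calls of the difference became 7 with the scale factor divided out, 21 without the trend and 7 to 106 with 1 array left out, and 34 with the replicate block. The 1219 later probe sets became 540 with the scale factor divided out. The median over all probe sets, 0.14, was 0.00 with no filter, -0.059 after median centring, 0.40 with the scale factor divided out and 0.06 to 0.21 with 1 array left out. The cause of these shifts was not tested.

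Signs turned for some genes near 0. H2BC21 stood at -0.055 after quantile normalization and -0.12 after median centring, and DDIT4 at -0.087 and -0.15. After median centring CXCL8 stood at -0.076, KCNAB2 at -0.043 and SLC7A1 at -0.064. With the scale factor divided out TUBA4A stood at 0.036, RAC2 at 0.047, MS4A3 at 0.070 and LST1 at 0.078. With 1 array left out H2BC21 ranged from -0.30 to 0.45, TUBA4A from -0.55 to 0.078, MS4A3 from -0.64 to 0.24, LST1 from -0.78 to 0.40 and DDIT4 from -0.19 to 0.29. Of the tested probe sets, 173 lay at the floor on all 4 arrays and 1363 on 1 to 3 of them, which limits what could be measured there.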
